A study of Homo sapiens with 2 samples.

Results

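MCF10A cells whose transcripts held more than the median share of DNA replication genes were compared between 2 conditions harvested at 20 h. The conditions were EGF alone and EGF with an inhibitor of PI3K, each in 2 biological replicates. MCF10A is an untransformed human mammary epithelial line whose proliferation needs EGF. The cells were chosen from their own counts. For each cell, S is the number of unique molecular identifiers (UMIs, counted transcript molecules) of PCNA, MCM3, MCM4, MCM5, MCM6, TYMS, GINS2, RRM2, CLSPN and FEN1 divided by all UMIs of the cell, and cells with S above the median of all cells of their library are called S-like. Of 4837 cells in the series 2418 were S-like, and 802 of these belonged to the 2 conditions compared. They were 258 with the PI3K inhibitor (160 in library 1 and 98 in library 2) and 544 with EGF alone (350 and 194). They came from 1190 cells of these conditions. The 10 genes that set S are left out of every result.

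The series holds 2 pooled droplet libraries, 1 per biological replicate, in which each of 8 conditions carries its own sample tag. Each library thus holds its own replicate of every condition, and the word culture below stands for a condition over both replicates. In the 2 conditions used here EGF was given at the start. The PI3K inhibitor was added in 1 of them at 15 h, and both were harvested at 20 h. A culture with EGF and a MEK inhibitor added at 15 h and harvested at 20 h is set beside them. Values at 15 h of EGF alone, when the inhibitor was added, come from cells that were S-like at that harvest (249 and 38). Those cells need not be the ones that would be S-like at 20 h. Their sum in library 2 held only 375542 UMIs. The harvests at 30 h entered the fit to estimate the spread. The labels describe 1 cell line, methanol-fixed and frozen before capture, and neither inhibitor's name or dose is stated in the sources used here. Library 1 had 2616 cells and library 2 had 2221, and 0 cell barcodes were shared between the libraries.

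PI3K is the lipid kinase that carries growth factor signals to AKT and mTOR. When it is active, AKT keeps the FOXO transcription factors out of the nucleus, mTOR drives ribosome production and lipid synthesis, and cyclin D is made and kept stable. A cell that enters S phase has activated E2F, which turns on the genes of nucleotide supply, replication licensing and fork progression, and it then builds up the transcripts of G2 and mitosis.

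The selected cells were not alike in S in the 2 cultures. With EGF alone, 79.9% of library 1 cells (95% Clopper-Pearson interval 75.8 to 83.6) and 83.3% of library 2 cells (77.8 to 87.8) lay above the cut. With the PI3K inhibitor 48.2% (42.7 to 53.7) and 52.4% (45.0 to 59.7) did. Among the S-like cells, mean S was 0.136% and 0.1503% of UMIs with EGF alone and 0.0851% and 0.113% with the inhibitor. These numbers come from the readout that chose the cells, so they are descriptions, and the intervals cover counting error only. In library 1 the cut lay between a cell at 0.0322815% and a cell at 0.0323171%, and in library 2 between 0.0481232% and 0.0481309%. S rests on few molecules: the median cell held 4 UMIs of the 10 genes in library 1 and 6 in library 2. S-like cells held medians of 19 and 16 with EGF alone and of 9 and 9.5 with the inhibitor. Cells within 10% of the cut numbered 116 in library 1 and 177 in library 2 over all conditions. After every cell was thinned to 6500 UMIs the S-like shares were 76.7% and 82.1% with EGF alone and 39.9% and 45.0% with the inhibitor, with 18 and 37 EGF cells and 21 and 38 inhibitor cells left out as too shallow. S-like cells had median depths of 14351 and 11745 UMIs with EGF alone and of 12499.5 and 10273 with the inhibitor.

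**Figure D1:**
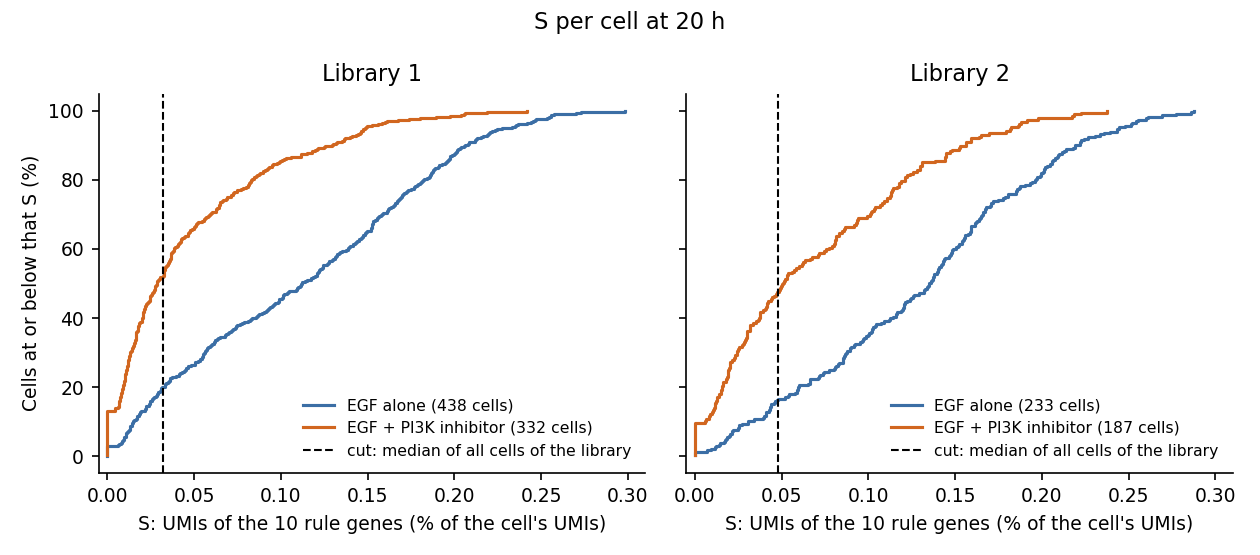
Cumulative share of cells (vertical axis, %) against S (horizontal axis, UMIs of the 10 selecting genes as % of the cell's UMIs) at 20 h, with 1 panel per library and the cut as a dashed line. The inhibitor curve lies above the EGF curve in both libraries, so its cells have lower S, and 48.2% and 52.4% of them are to the right of the cut.

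Because S differed within the selection, every gene group was also read in a subset in which the cultures had equal numbers of cells from the same bins of S, 145 and 145 cells in library 1 and 88 and 88 in library 2. These are called cells matched in S. The name S-like was checked on genes outside the selection. All 60 tested S phase genes outside the 10 were higher in S-like than in the remaining cells of the PI3K inhibitor culture in both libraries. With EGF alone 58 of 60 were. Of 10280 genes in all, 2989 were so with the PI3K inhibitor and 3229 with EGF alone. G2/M genes were higher as well, in 64 and 63 of 65 cases, so the cut does not separate S phase from G2/M transcripts and the name stands only for cells above it. These differences come from the cut itself and carry no test. Since S phase and G2/M genes go with S, matching on S also evens them out in part. Their values in matched cells are therefore descriptions, partly set by the matching. Per cell, the summed G2/M genes were at a median of 0.333% and 0.486% of UMIs in S-like cells with EGF alone and 0.197% and 0.345% with the inhibitor.

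Of 9978 genes tested in the summed S-like cells, 1611 changed with the PI3K inhibitor (16.1%), 845 higher (8.47%) and 766 lower (7.68%), at an adjusted p under 0.05 by edgeR's quasi-likelihood test with the library as a block. The sign was the same in both libraries for 1607 of the 1611, which follows largely from calling them on these same libraries. Unadjusted p was under 0.05 for 2858 genes. Summed depths were 5001678 and 2320621 UMIs with EGF alone and 2000378 and 1023477 with the inhibitor. Cells matched in S gave 1032 changed genes (10.6% of 9722), 547 higher (5.63%) and 485 lower (4.99%). Of these 1032, 929 were among the 1611, all 929 with the same sign. The matched cells are a subset, with 145 of the 160 and 88 of the 98 inhibitor cells, so this overlap is no independent check. Counts moved with the choices: 402 genes without the block, 472 without the PI3K inhibitor sum of library 1, 793 without the EGF sum of library 1, 800 by DESeq2 and 303 in S-like cells with a low G2/M share. With library totals in place of TMM scaling the median of all genes moved by -0.15 on the log2 scale and the split was 508 higher and 1452 lower, so the differences below are relative to the median gene. In summed cells, fewer molecules per cell and fewer cells that express a gene cannot be told apart.

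**Figure D2:**
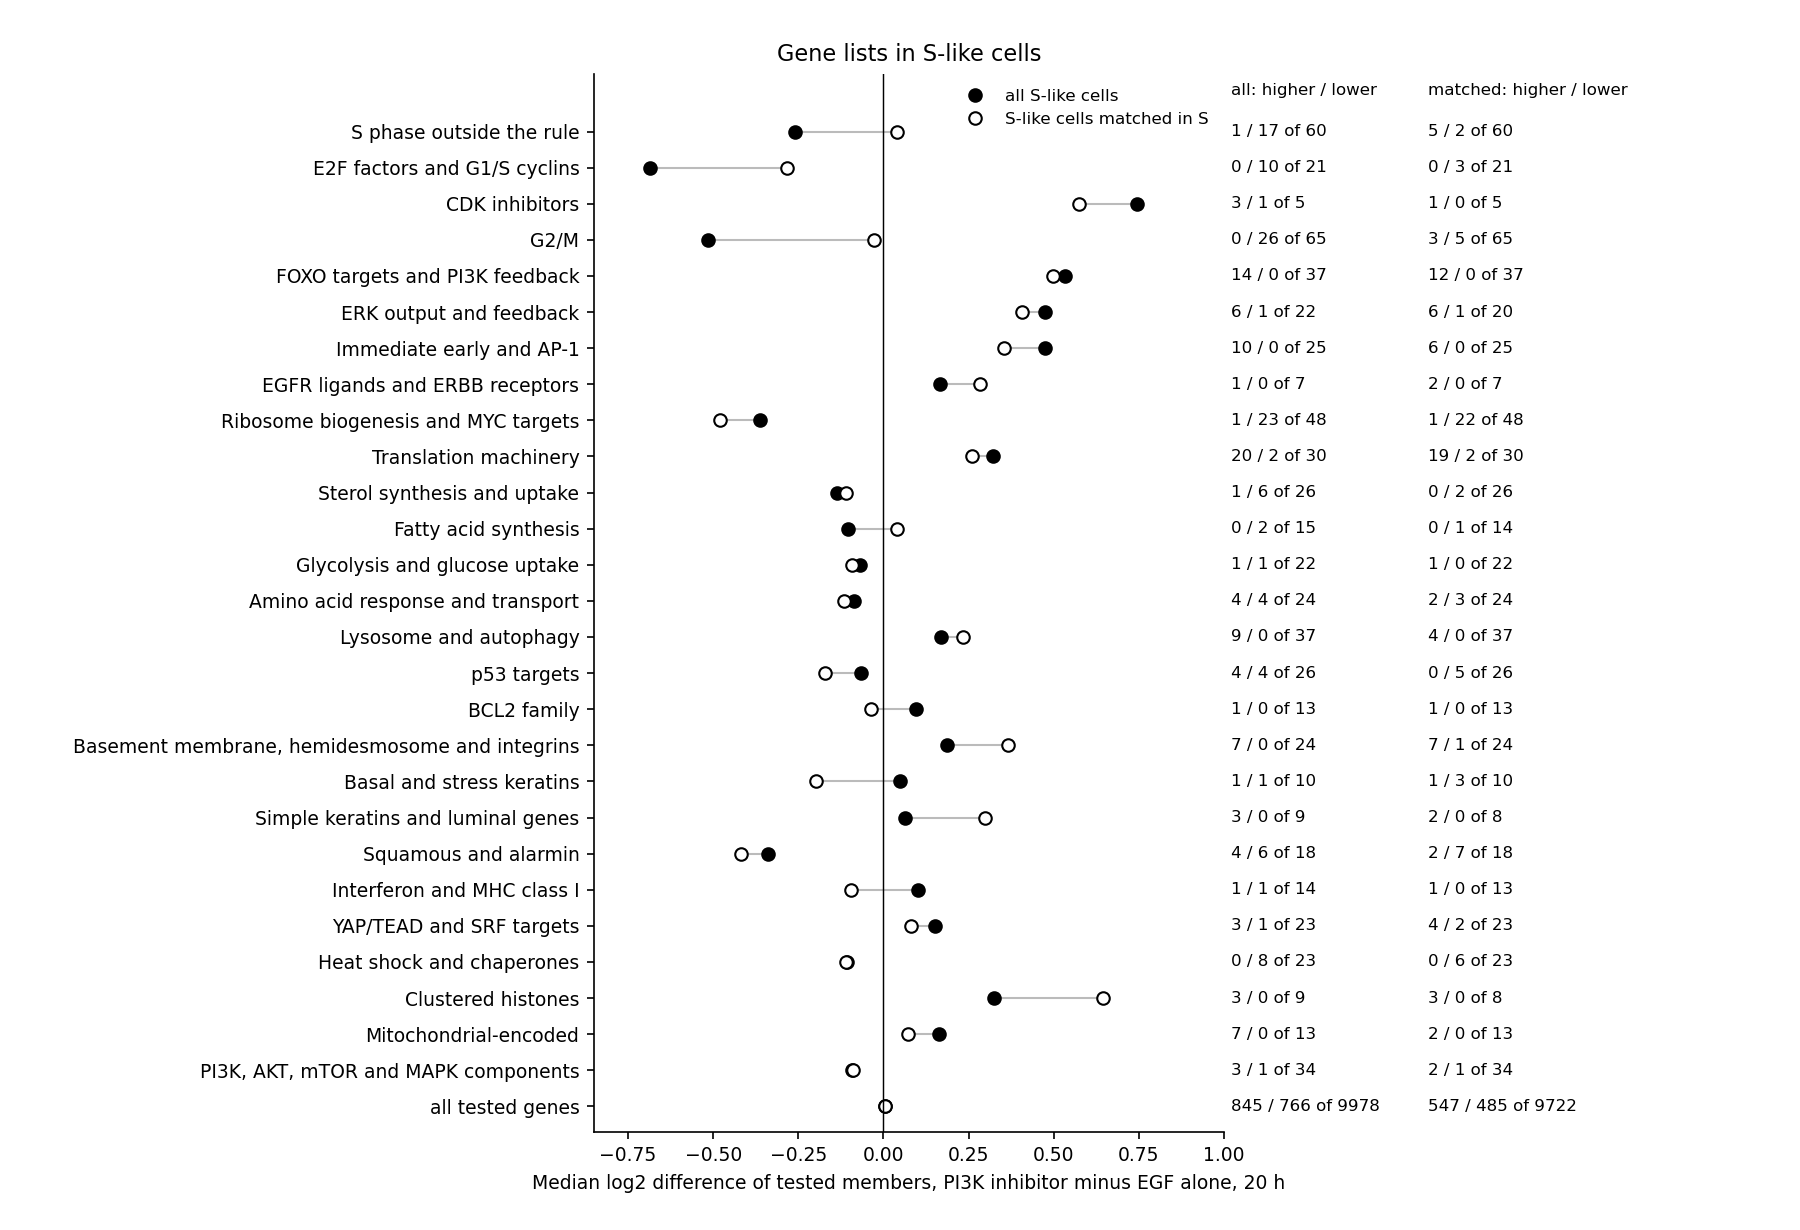
Median log2 difference (horizontal axis, PI3K inhibitor minus EGF alone at 20 h) of the tested members of each gene list, in all S-like cells (filled) and in cells matched in S (open), with the numbers of members higher and lower at an adjusted p under 0.05. The medians of FOXO targets are 0.53 and 0.50 and those of ribosome biogenesis -0.36 and -0.48, while those of G2/M are -0.52 and -0.03 and those of S phase genes -0.26 and 0.04. S phase and G2/M genes go with S, so their shift is partly set by the matching.

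Genes that FOXO factors turn on, and genes of feedback onto the PI3K pathway, were higher with the PI3K inhibitor in S-like cells. Of 37 tested members 14 rose and 0 fell, against 8.47% and 7.68% of all genes, with a median log2 difference of 0.53 against 0.00345 for all genes. The lists here and below were chosen with earlier results of these data known, so their counts are descriptions and not independent support. TXNIP, an arrestin-family protein that holds back glucose uptake, was at 87.6 and 51.6 CPM (counts scaled to the same total for every sum) in libraries 1 and 2 with EGF alone and at 487 and 208 with the inhibitor. Both inhibitor sums lie above both EGF sums, and library 1 was the higher in both cultures. The log2 fold change of TXNIP was 2.32 (SE 0.12, adjusted p = 9.6e-19), and at 15 h, when the inhibitor was added, TXNIP stood at 101 and 37.1 CPM. CCNG2, which encodes the cell-cycle-slowing cyclin G2, went from 6.88 and 8.54 to 30.1 and 24.0 CPM (log2 1.89, SE 0.26, adjusted p = 6.7e-07). CREBRF, a leucine zipper regulator, had the largest difference of the list, from 2.63 and 2.33 to 17.6 and 21.1 CPM (log2 2.86, adjusted p = 1.3e-07). IRS2, the adaptor that couples insulin and IGF receptors to PI3K, went from 16.2 and 23.7 to 38.0 and 56.5 CPM (log2 1.24). ZBTB16 (log2 1.75), a zinc finger repressor, and TSC22D3 (log2 1.62), a leucine zipper protein also induced by glucocorticoids, rose too. None of these ranges overlap between the cultures. With 2 sums per culture, separate ranges here and below are descriptions and carry no test. The share of all genes with separate ranges is not given here.

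The remaining called members were YPEL3 (log2 1.92), PDK4 (1.21), which holds back pyruvate use by mitochondria, YPEL5 (1.09), MXD4 (0.85), which opposes MYC, CITED2 (0.67), GADD45A (0.60), KLF6 (0.52) and the mitochondrial superoxide dismutase SOD2 (0.52), and among these the ranges of KLF6 overlap. Transcripts of the factors themselves were not called: FOXO1 was at 21.6 and 24.9 CPM with EGF alone and 22.7 and 40.2 with the inhibitor (adjusted p = 0.26), and FOXO3 at 16.2 and 17.1 CPM with EGF alone and 18.2 and 19.2 with the inhibitor (adjusted p = 0.71). In cells matched in S 12 of 37 rose and 0 fell, with a median of 0.50, and TXNIP, CCNG2, CREBRF and IRS2 differed by log2 2.24, 2.01, 2.63 and 1.46. The count of members that rose was 8 without the block, 6 without the PI3K inhibitor sum of library 1 and 8 without the EGF sum of library 1. YPEL3, PDK4, YPEL5, MXD4, CITED2, GADD45A, KLF6 and SOD2 all missed the threshold without the PI3K inhibitor sum of library 1 (adjusted p from 0.1 to 0.69).

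The core letters that FOXO factors bind are GTAAACA, and they were searched on both strands of the 250 bases before each gene start in RefSeq (GRCh38.p14). They occur in 2.98% of 35116 promoters and in 2.91% of the 7931 tested genes that have one. Among the 15 largest rises of the comparison 9 genes have a promoter in the table and 2 of these, TXNIP and HBP1, hold the letters, and 12 called members of the FOXO list have one, of which 2 do, TXNIP and TSC22D3. Of the 15 largest falls 10 have a promoter and 0 hold them. A match of letters is a description of the sequence and not a site shown to be bound. The promoters of TXNIP (chr1:145996601-145996829, minus strand) and HBP1 (chr7:107168753-107168960, plus strand) are shown because both genes are among the largest rises; each ends where the first annotated exon begins, and capitals mark the letters.
TXNIP: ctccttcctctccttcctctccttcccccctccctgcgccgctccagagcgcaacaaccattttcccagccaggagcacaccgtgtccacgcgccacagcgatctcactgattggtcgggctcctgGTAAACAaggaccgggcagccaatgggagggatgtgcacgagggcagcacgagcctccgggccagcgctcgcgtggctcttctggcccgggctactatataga
HBP1: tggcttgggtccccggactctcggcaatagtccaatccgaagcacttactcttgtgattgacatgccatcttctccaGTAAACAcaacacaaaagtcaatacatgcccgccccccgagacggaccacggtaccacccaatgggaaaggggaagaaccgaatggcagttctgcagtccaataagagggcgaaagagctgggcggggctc
HBP1, a repressor of cell cycle genes, was at 5.26 and 6.60 CPM with EGF alone and at 19.3 and 33.5 with the inhibitor (log2 2.09, SE 0.29, adjusted p = 8.5e-07), and its ranges do not overlap. In both promoters the letters lie upstream, first base 124 bases before the RefSeq start in TXNIP and 173 in HBP1.

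Early response genes, whose transcription follows growth factor and stress signals within minutes, were higher with the PI3K inhibitor in S-like cells. Of 25 tested members 10 rose and 0 fell, against 8.47% and 7.68% of all genes. EGR1, a zinc finger factor induced through ERK, was at 19.2 and 14.4 CPM with EGF alone, 69.8 and 86.2 with the PI3K inhibitor and 3.87 and 6.43 with the MEK inhibitor. EGR1 was therefore highest in the PI3K-inhibited sums and lowest in the MEK-inhibited ones, with no overlap among the 3 cultures (log2 2.13 against EGF alone, SE 0.20, adjusted p = 4.2e-11). The AP-1 subunits JUND (log2 0.69), FOSB (0.66), JUNB (0.62) and FOS (0.51), the RNA-decay factors ZFP36 (0.69) and ZFP36L2 (0.53), IER2 (0.60), BTG1 (0.78), which slows proliferation, and the survival factor MCL1 (0.66) made up the rest. FOSB differed between libraries in level, 21.4 and 85.4 CPM with EGF alone and 49.9 and 103 with the inhibitor, and its ranges overlap, as do those of FOS, JUND and ZFP36. MYC was at 188 and 188 CPM with EGF alone and 184 and 191 with the inhibitor (log2 -0.01, SE 0.11, adjusted p = 0.97). In cells matched in S 6 members rose, among them EGR1 (log2 1.85). Without the block 1 member was called, and without the PI3K inhibitor sum of library 1 there were 4, EGR1, JUND, BTG1 and MCL1. FOSB also missed the threshold without either EGF sum (adjusted p = 0.057 and 0.0518), and BTG1 and ZFP36 without the EGF sum of library 1 (0.071 and 0.12).

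Of 22 tested genes of ERK output and feedback 6 rose and 1 fell (median 0.48), against 8.47% and 7.68% of all genes. DUSP5, a nuclear phosphatase that acts on ERK, was at 6.27 and 5.44 CPM with EGF alone, 13.6 and 17.2 with the PI3K inhibitor and 0.553 and 0.804 with the MEK inhibitor (log2 1.32 against EGF alone, adjusted p = 0.0025, and 0.055 without the PI3K inhibitor sum of library 2). ERRFI1, which encodes the EGFR brake MIG6, went from 20.2 and 21.0 to 58.4 and 47.0 CPM (log2 1.39, SE 0.19, adjusted p = 4.6e-07). IER3 (log2 0.90), PHLDA1 (0.78), the stress phosphatase DUSP1 (0.47) and MAFF (0.69) rose as well, DUSP1 with ranges that overlap. PHLDA2, the one member that fell, went from 536 and 499 to 305 and 297 CPM (log2 -0.79, adjusted p = 6.2e-10), and MEK-inhibited cells had 226 and 201 CPM. Among EGFR ligands and ERBB receptors EGFR rose (132 and 161 to 193 and 189 CPM, log2 0.41, adjusted p = 0.0021) and was the only one called of 7. AREG, an EGFR ligand that mammary cells make themselves, was at 694 and 634 CPM with EGF alone and 638 and 879.7 with the inhibitor (adjusted p = 0.31). In cells matched in S EGFR was not called (log2 0.28, adjusted p = 0.087), while AREG (0.31, adjusted p = 0.0453) and the ligand HBEGF (1.05, adjusted p = 0.0454) rose. There 6 of 20 ERK output members rose, with SPRY2 in place of MAFF, and 1 fell. DUSP1, MAFF and EGFR missed the threshold without the PI3K inhibitor sum of library 1 (adjusted p = 0.23, 0.59 and 0.26), EGFR also without the EGF sum of library 1 (0.15) and MAFF without each of the other 3 sums.

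**Figure D3:**
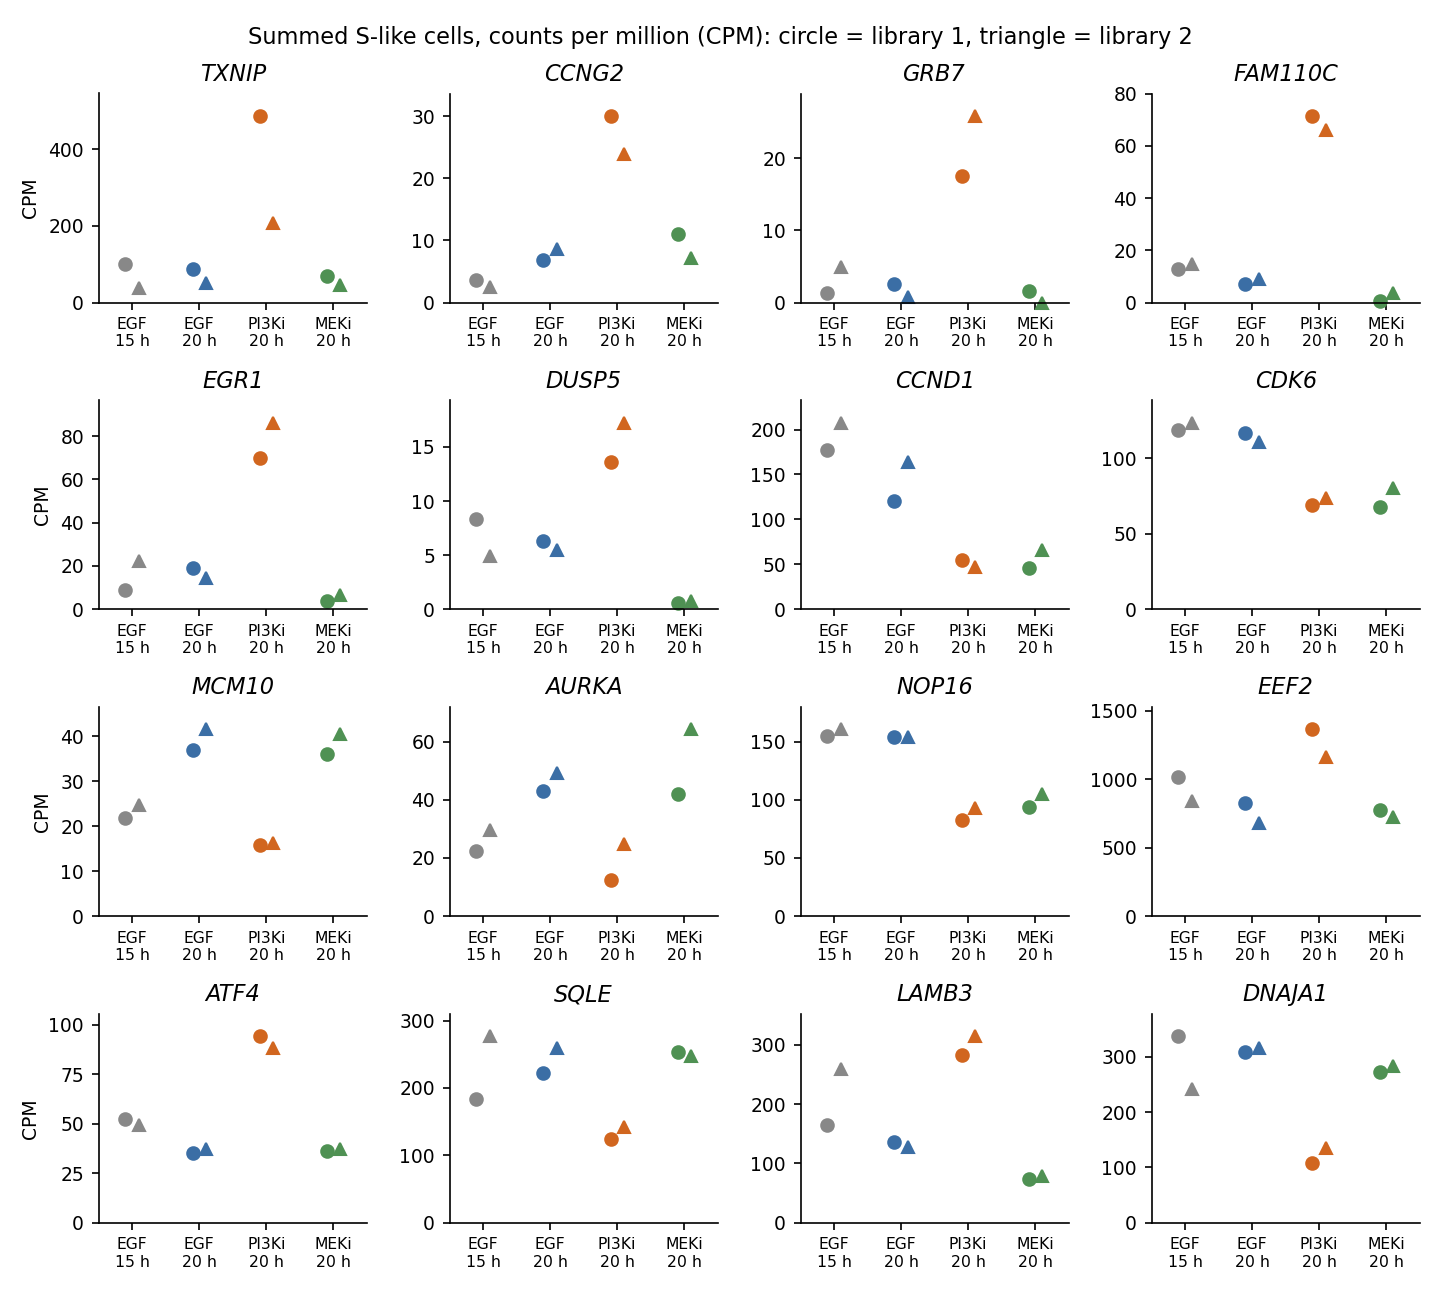
CPM (vertical axes, from 0, linear) of 16 genes in the summed S-like cells of EGF alone at 15 h and 20 h and of the PI3K and MEK inhibitors at 20 h, with a circle for library 1 and a triangle for library 2. TXNIP, CCNG2, GRB7, FAM110C, EGR1, DUSP5, EEF2, ATF4 and LAMB3 are highest with the PI3K inhibitor in both libraries, and CCND1, CDK6 and NOP16 are low with either inhibitor.

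Some cyclin genes of G1 and of the transition into S were lower with the PI3K inhibitor in S-like cells. CCND3 (log2 -0.16, adjusted p = 0.53) and CCNE1 (-0.04, adjusted p = 0.94) were not called, and CCNE1 differed by -0.46 and 0.46 in libraries 1 and 2. Of 21 tested E2F factors and G1/S cyclins 10 fell and 0 rose (median -0.69), against 7.68% and 8.47% of all genes. CCND1, which encodes cyclin D1, was at 120.1 and 164 CPM with EGF alone and 55.0 and 47.0 with the inhibitor (log2 -1.40, SE 0.15, adjusted p = 9.4e-10). It had stood at 177 and 208 CPM at 15 h, and MEK-inhibited cells had 45.4 and 66.3, and the test found no difference between the inhibitors past the threshold (log2 -0.09, SE 0.18, adjusted p = 0.79). CCND2, which encodes cyclin D2, went from 40.8 and 51.3 to 23.3 and 21.1 CPM (log2 -0.995), and their partner kinase CDK6 from 117 and 111 to 69.2 and 73.8 (log2 -0.69). These 3 genes also fell in cells matched in S, by 1.49, 1.096 and 0.60 on the log2 scale.

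The other called members were CDC25A (log2 -1.48), the phosphatase that activates the CDKs of S phase, CCNE2 (-1.11), which encodes cyclin E2, CCNA2 (-0.86), SKP2 (-1.04), which targets p27 for destruction, FBXO5 (-1.08), an inhibitor of the anaphase-promoting complex, and the repressors E2F7 (-1.096) and E2F8 (-1.38). Of these 7, 0 were called in cells matched in S, where CCNE2 was at log2 -0.44 (adjusted p = 0.41) and CDC25A at -0.92 (adjusted p = 0.26). The list's count was 4 without the block and 3 without the PI3K inhibitor sum of library 1. Among 5 tested CDK inhibitors CDKN1A (p21), CDKN1C (p57) and CDKN2D (p19) rose and CDKN2C (p18) fell, against 8.47% and 7.68% of all genes. CDKN2D went from 19.8 and 21.0 to 37.4 and 32.6 CPM (log2 0.81, adjusted p = 0.0042), CDKN1A from 25.7 and 26.0 to 39.1 and 49.8 (log2 0.74) and CDKN1C from 8.29 and 7.38 to 20.4 and 14.4 (log2 1.19). The CDKN1C level was far below that of MEK-inhibited cells, 92.9 and 65.5 CPM. CDKN1B, which encodes p27, was at 10.1 and 13.98 CPM with EGF alone and 7.94 and 7.67 with the inhibitor (adjusted p = 0.29). Of the 3 CDK inhibitors that rose, 0 were called without the block and 1, CDKN2D, in cells matched in S. Without the PI3K inhibitor sum of library 1, CDKN1C, CDKN2D and CDKN2C missed the threshold (adjusted p = 0.15, 0.29 and 0.44), as did CDKN1A without that of library 2 (0.084).

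S phase genes outside the selecting 10 were lower with the PI3K inhibitor in S-like cells, but few were once S was matched. These genes go with S, so that contrast is partly set by the matching and is a description. In all S-like cells 17 of 60 fell and 1 rose (median -0.26), against 7.68% and 8.47% of all genes. GINS1, a subunit of the replicative helicase, was at 23.9 and 23.3 CPM with EGF alone and 7.94 and 5.75 with the inhibitor (log2 -1.73, SE 0.29, adjusted p = 2.4e-05). MCM10, which activates that helicase, went from 37.0 and 41.5 to 15.9 and 16.3 CPM (log2 -1.27, adjusted p = 3.7e-05). UHRF1, which brings DNA methylation to new strands, went from 79.9 and 84.7 to 34.0 and 44.1 (log2 -1.11, adjusted p = 1.2e-06). All 3 genes had separate ranges, and their levels in MEK-inhibited cells, 22.7 and 23.3 CPM of GINS1, 36.0 and 40.6 of MCM10 and 74.7 and 68.7 of UHRF1, were near those with EGF alone. The polymerase subunits POLD3 (log2 -0.91), POLA2 (-0.72) and POLE3 (-0.38), the clamp loader RFC3 (-0.62), the licensing factor CDC6 (-0.83), the chromatin assembly factor CHAF1A (-0.81), the helicases BLM (-1.45) and HELLS (-0.51), UNG (-0.65), which removes uracil from DNA, USP1 (-0.42), RAD51AP1 (-0.61), ATAD2 (-0.42), DSCC1 (-0.64) and E2F8 (-1.38) completed the falls, with overlapping ranges for POLA2. CDT1 (0.54), the licensing factor that is destroyed in S phase, was the one that rose, from 36.8 and 33.0 to 48.2 and 56.5 CPM (adjusted p = 0.029).

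In cells matched in S, 4.99% of all genes fell and 5.63% rose. There 2 of 60 S phase genes fell, GINS1 (log2 -1.60, adjusted p = 0.0012) and UHRF1 (-0.62, adjusted p = 0.032). The 5 that rose were TK1 (1.099), CDC45 (0.76), CDT1 (0.71), PRIM1 (0.69) and RPA3 (0.40). TK1, a thymidine kinase of nucleotide salvage, had been at 45.5 and 47.8 CPM with EGF alone and 51.6 and 77.6 with the inhibitor in all S-like cells (adjusted p = 0.068). The count of members that fell was 6 without the block, 4 without the PI3K inhibitor sum of library 1 (GINS1, MCM10, UHRF1 and POLD3), 8 without the EGF sum of library 1, 28 with library totals and 5 when the cut was moved to the 75th percentile. CDT1 missed the threshold without either inhibitor sum (adjusted p = 0.19 and 0.15) or the EGF sum of library 2 (0.2). MCM10, called without each sum in turn, was at log2 -0.61 (adjusted p = 0.18) in matched cells.

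E2F binds the letters TTTGGCGC and TTTCCCGC, which occur on either strand in 0.55% and 1.39% of 35116 promoters of 250 bases, and in 1.24% and 3.18% of the 7931 tested genes that have a promoter in the table. Of 50 S phase genes of the list that have a promoter there, 8 hold the first and 8 the second, and of the 13 called lower that have one, 1 and 3 do. HELLS holds both and is shown (chr10:94545538-94545787, plus strand, GRCh38.p14), with the matches in capitals, since it is a member that fell and in which both forms can be seen; the first is in reverse complement.
HELLS: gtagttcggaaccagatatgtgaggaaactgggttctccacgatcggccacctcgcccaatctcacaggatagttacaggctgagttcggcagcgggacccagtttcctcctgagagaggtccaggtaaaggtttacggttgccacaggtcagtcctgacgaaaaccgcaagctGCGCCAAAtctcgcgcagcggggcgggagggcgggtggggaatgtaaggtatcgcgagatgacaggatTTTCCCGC
HELLS, a chromatin remodeller active in replicating cells, was at 87.8 and 93.6 CPM with EGF alone and 53.3 and 78.6 with the inhibitor (log2 -0.51, adjusted p = 0.007), and at log2 -0.11 in cells matched in S (adjusted p = 0.74). Its call was lost without the PI3K inhibitor sum of library 1 (adjusted p = 0.66). At S between the median and the 75th percentile HELLS was at log2 0.14.

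G2/M genes were lower as well, and again mostly in the unmatched cells, a contrast that is partly set by the matching. In all S-like cells 26 of 65 fell and 0 rose (median -0.52), against 7.68% and 8.47% of all genes. In cells matched in S 5 fell and 3 rose (median -0.03), against 4.99% and 5.63% of all genes. AURKA, the spindle pole kinase, was at 43.1 and 49.3 CPM with EGF alone and 12.5 and 24.9 with the inhibitor (log2 -1.40, SE 0.21, adjusted p = 2.8e-06). CENPA, the centromeric histone, went from 20.6 and 30.7 to 6.81 and 5.75 CPM (log2 -1.91, adjusted p = 3.2e-05), and LMNB1, which encodes lamin B1, from 41.9 and 38.1 to 7.37 and 18.2 (log2 -1.81). TMPO (log2 -1.06), a protein of the nuclear lamina, and CKS2 (-0.82), a CDK subunit, also fell. The 5 members that fell in matched cells were these 5, AURKA, CENPA, LMNB1, TMPO and CKS2, by 1.11, 1.34, 1.33, 0.83 and 0.67 on the log2 scale. The condensin subunit SMC4 (log2 0.68), PTTG1 (0.45) and HMGB2 (0.41) rose there. MKI67, the proliferation marker, was at 65.1 and 98.2 CPM with EGF alone and 29.5 and 77.6 with the inhibitor, ranges that overlap (log2 -0.70, adjusted p = 0.0033), and at log2 0.07 in matched cells (adjusted p = 0.9). The list's median was -0.78 in library 1 and -0.26 in library 2, and 4 members were called without the PI3K inhibitor sum of library 1, against 7 without the block. LMNB1 and MKI67 were among those lost without that sum (adjusted p = 0.0503 and 0.66).

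**Figure D4:**
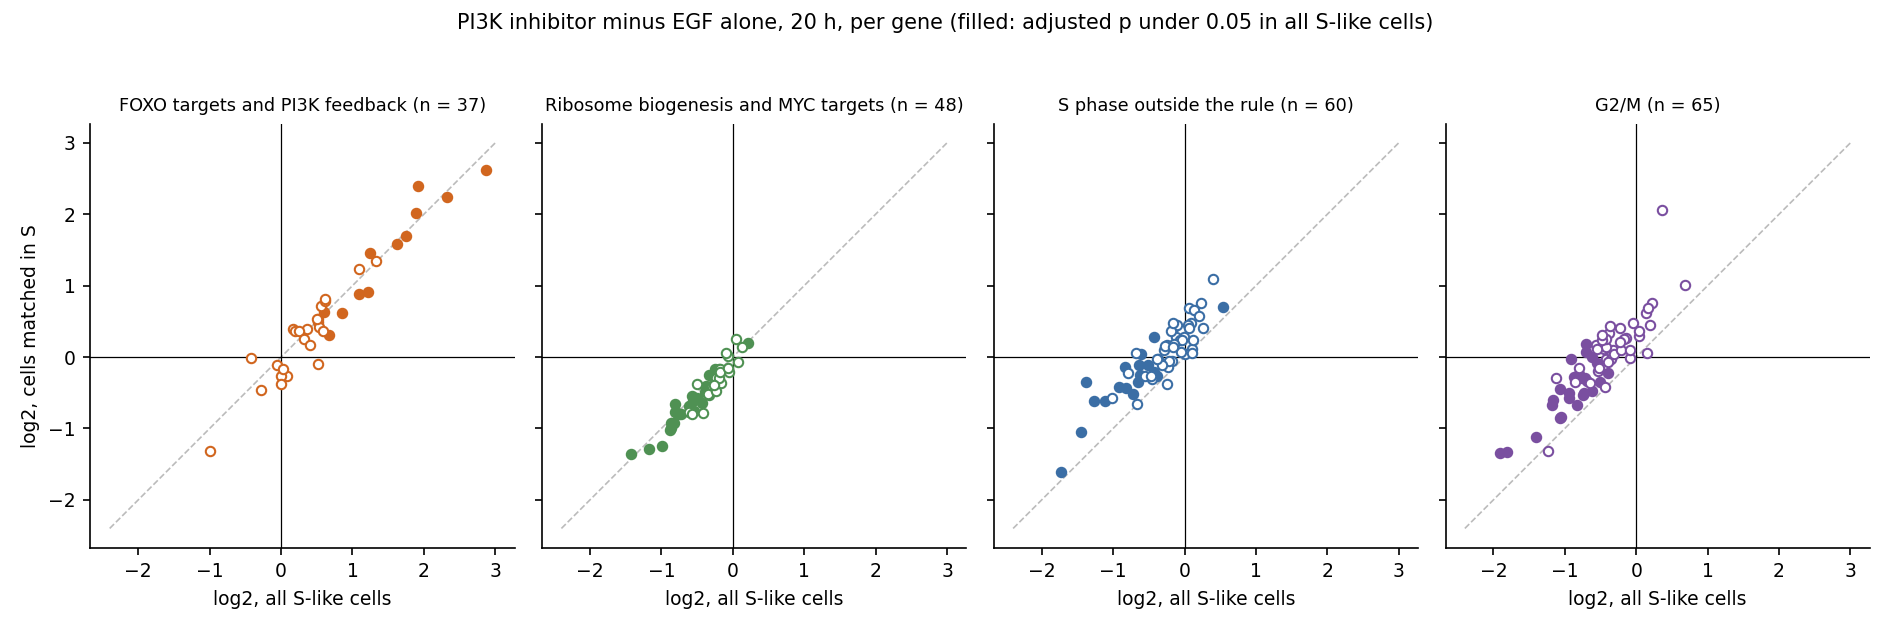
Log2 difference (PI3K inhibitor minus EGF alone, 20 h) of each tested member of 4 gene lists in cells matched in S (vertical axis) against all S-like cells (horizontal axis), with called genes filled and the line of equality dashed. FOXO and ribosome biogenesis members lie along the line, with medians of 0.53 and 0.50 and of -0.36 and -0.48, while most S phase and G2/M members lie above it. The position of S phase and G2/M members is partly set by the matching.

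Genes of ribosome biogenesis, a list that also holds other MYC targets, were lower with the PI3K inhibitor. Of 48 tested members 23 fell and 1 rose (median -0.36), against 7.68% and 8.47% of all genes. In cells matched in S 22 fell and 1 rose (median -0.48). RRS1, a ribosome assembly factor, was at 72.0 and 60.2 CPM with EGF alone and 25.5 and 36.4 with the inhibitor (log2 -1.18, SE 0.17, adjusted p = 1.6e-06). NOP16 went from 154 and 154 to 82.8 and 92.9 CPM (log2 -0.83, adjusted p = 3.3e-07), and DKC1, the pseudouridine synthase of small nucleolar particles, from 165 and 181 to 86.8 and 105 (log2 -0.86, adjusted p = 1.9e-07). RRN3, which recruits RNA polymerase I, fell by 1.43 on the log2 scale (16.8 and 18.3 to 6.81 and 5.75 CPM). The ranges of these 4 do not overlap. PNO1 (log2 -0.99), MRTO4 (-0.75), NOP58 (-0.73) and DDX21 (-0.51) fell as well. NPM1, nucleophosmin, was the member that rose, from 2723 and 2493 to 3233 and 2820.1 CPM (log2 0.21, adjusted p = 0.0026, and 0.22 without the PI3K inhibitor sum of library 1). Both NOP16 and RRS1 were low with the MEK inhibitor too: NOP16 stood at 93.5 and 105 CPM and RRS1 at 39.3 and 35.8. With the PI3K inhibitor 5 of 48 members were higher and 5 lower than with the MEK inhibitor, against 8.73% and 8.7% of all genes. The count of members that fell was 13 without the block, 11 without the PI3K inhibitor sum of library 1 and 12 without the EGF sum of library 1.

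Genes of the translation machinery went the other way (median 0.32). Of 30 tested members 20 were higher and 2 lower, against 8.47% and 7.68% of all genes. The members are abundant and the differences were small. EEF2, the elongation factor that moves the ribosome along, was at 824 and 677 CPM with EGF alone, 1363 and 1162 with the PI3K inhibitor and 771 and 723 with the MEK inhibitor (log2 0.75, SE 0.06, adjusted p = 9.3e-13), and the PI3K inhibitor sums lie above all the others. EEF1A1 (log2 0.47), TPT1 (0.49), RPLP0 (0.45), RPL3 (0.45), RPS18 (0.40) and EIF4B (0.50) rose, RPLP0 with ranges that overlap. Many ribosomal protein genes have processed pseudogenes of near-identical sequence, so their counts may be split. The 2 members that fell were those of cap binding: EIF4E, the cap-binding subunit, from 55.6 and 46.2 to 28.9 and 25.9 CPM (log2 -0.90, adjusted p = 0.00018), and EIF4G1, its scaffold, from 115 and 112 to 69.2 and 77.6 (log2 -0.65; adjusted p = 0.11 without the PI3K inhibitor sum of library 1). In cells matched in S 19 rose and 2 fell. The count of members that rose was 1 without the block, EEF2, and 17 to 20 without each sum in turn.

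Amino acid and lipid genes showed both directions, where 8.47% of all genes rose and 7.68% fell. ATF4, the transcription factor of the amino acid response, was at 35.4 and 37.3 CPM with EGF alone, 94.2 and 88.2 with the PI3K inhibitor and 36.0 and 37.4 with the MEK inhibitor (log2 1.34, SE 0.14, adjusted p = 1.4e-09). SLC3A2 and SLC7A5, the 2 chains of the large neutral amino acid transporter, fell, SLC3A2 from 417 and 446 to 177 and 262 CPM (log2 -1.02, adjusted p = 2.1e-11) and SLC7A5 from 239 and 228 to 142 and 167 (log2 -0.62, adjusted p = 5.5e-06). CEBPB (log2 0.71), NUPR1 (0.74) and DDIT3 (1.38) rose, and PSAT1 (-0.53), an enzyme of serine synthesis, and the cationic amino acid transporter SLC7A1 (-0.67) fell, so that 4 of 24 members rose and 4 fell. Of 26 sterol genes 6 fell and 1 rose, and in cells matched in S 2 fell. SQLE, squalene epoxidase, went from 222 and 259.8 to 124 and 142 CPM (log2 -0.86, SE 0.10, adjusted p = 3.4e-08) and HMGCS1, which makes HMG-CoA, from 33.4 and 48.9 to 12.5 and 23.0 (log2 -1.25, adjusted p = 3.1e-05), while MEK-inhibited cells had 254 and 247 CPM of SQLE and 44.8 and 55.1 of HMGCS1. These were the 2 sterol genes called in matched cells (log2 -0.89 and -1.40), and 2 members were called without the PI3K inhibitor sum of library 1. CEBPB and DDIT3 missed the threshold without that sum (adjusted p = 0.11 and 0.37), DDIT3 without the EGF sum of library 1 (0.16), PSAT1 without the inhibitor sum of library 2 (0.14) and without the EGF sum of library 2 (0.056), and SLC7A1 without either inhibitor sum (0.21 and 0.11) or the EGF sum of library 2 (0.1).

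Among 37 tested genes of lysosomes and autophagy 9 rose and 0 fell, against 8.47% and 7.68% of all genes. CTSB, the protease cathepsin B, was at 147 and 151 CPM with EGF alone and 270.0 and 274 with the inhibitor (log2 0.87, SE 0.09, adjusted p = 2.5e-09), and the autophagy receptor SQSTM1 at 109 and 116 CPM with EGF alone and 209.9 and 195 with the inhibitor (log2 0.86, adjusted p = 3.4e-09). BNIP3L, a receptor for the removal of mitochondria, went from 7.28 and 5.44 to 27.2 and 24.0 CPM (log2 1.97, adjusted p = 2.8e-07). These 3 do not overlap between cultures and were also called in cells matched in S, where 4 members rose. The list's count was 4 without the block, 3 without the PI3K inhibitor sum of library 1, 6 without the EGF sum of library 1 and 6 with library totals.

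Genes by which basal epithelial cells hold to the basement membrane were higher. Of 24 tested members 7 rose and 0 fell (median 0.19), against 8.47% and 7.68% of all genes. In cells matched in S 7 rose and 1 fell (median 0.36). LAMB3, a chain of laminin-332, was at 137 and 127 CPM with EGF alone, 282 and 314 with the PI3K inhibitor and 73.0 and 78.8 with the MEK inhibitor (log2 1.15 against EGF alone, SE 0.10, adjusted p = 9e-12). LAMA3 (log2 0.73), which encodes another laminin chain, the hemidesmosome components ITGB4 (0.67), PLEC (0.77) and DST (0.38) and the collagen receptor subunit ITGA2 (1.03) rose with it. ITGA2 went from 30.1 and 24.1 to 57.3 and 56.5 CPM and was at 5.53 and 2.81 with the MEK inhibitor. The member that fell in matched cells was LAMA5 (log2 -0.66). Without the block or without the PI3K inhibitor sum of library 1 the count was 5, and DST was among the calls lost (adjusted p = 0.12 without that sum and 0.055 without the EGF sum of library 1).

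The differentiation, chaperone and mitochondrial lists are read against 8.47% of all genes that rose and 7.68% that fell. Among differentiation genes, 4 of 18 tested squamous and alarmin genes rose and 6 fell. The counts were 0 and 3 without the block and 2 and 7 in cells matched in S. SPRR2D, a cornified envelope protein, had the largest fall among genes at 20 CPM or more, from 13.3 and 45.8 to 5.11 and 5.75 CPM (log2 -2.21, SE 0.39, adjusted p = 3.8e-05), and stood at 66.4 and 106 CPM at 15 h. SFN, which encodes 14-3-3 sigma, went from 836 and 904 to 471 and 552 CPM (log2 -0.77, adjusted p = 3.6e-11), and PI3, the protease inhibitor elafin, from 61.1 and 146 to 30.6 and 30.7 (log2 -1.61). The calcium-binding protein S100A14 rose (log2 0.43). Of 10 basal and stress keratins 1 rose and 1 fell, against 1 and 3 in cells matched in S, and of 9 simple keratin and luminal genes 3 rose and 0 fell, against 2 and 0 of 8 in matched cells. KRT5 was at 2698 and 3153 CPM with EGF alone and 2508 and 2964 with the inhibitor (adjusted p = 0.23; log2 -0.23, adjusted p = 0.0029, in matched cells), KRT18 rose by log2 0.49 and KRT17, whose ranges overlap, by 0.43, neither called without the block. Of 23 chaperone genes 8 fell and 0 rose, led by DNAJA1, an HSP70 partner, from 309 and 316 to 108 and 135 CPM (log2 -1.39, SE 0.11, adjusted p = 4.2e-13). HSPE1 (-0.41) and HSPH1 (-0.54) fell too, and 6 members fell in cells matched in S. The chaperone count was 1 without the block, where DNAJA1 was the one called, and 4 without the PI3K inhibitor or the EGF sum of library 1. Mitochondrial-encoded transcripts were called higher in 7 of 13 cases, but in 1 case with library totals, in 0 without the block and in 2 to 4 without each sum in turn. Their share of UMIs was 5.02% and 5.33% in S-like cells with EGF alone and 5.14% and 5.84% with the inhibitor.

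Of 34 tested genes of PI3K, AKT, mTOR and MAPK 3 rose and 1 fell, where 8.47% of all genes rose and 7.68% fell. PDPK1, the kinase that activates AKT, went from 17.4 and 15.9 to 31.8 and 32.6 CPM (log2 0.93, SE 0.21, adjusted p = 0.0013; 0.093 without the PI3K inhibitor sum of library 1). PIK3R1, the regulatory subunit of PI3K, went from 133 and 97.1 to 83.4 and 69.0 CPM (log2 -0.61, adjusted p = 0.0004; 0.087 without that sum). TSC1 also rose (3.84 and 3.88 to 7.94 and 11.50 CPM) but missed the threshold without any 1 of the 4 sums (adjusted p from 0.071 to 0.19). p53 targets were split, 4 of 26 higher and 4 lower, with AEN (log2 -1.71, adjusted p = 0.22 without the PI3K inhibitor sum of library 1) and PHLDA3 (-0.50) among the falls, and 0 higher and 5 lower in cells matched in S.

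The remaining lists are read against 8.47% of all genes that rose and 7.68% that fell. Of 9 clustered histone genes 3 rose and 0 fell, as did 3 and 0 of 8 in cells matched in S, among them HIST3H2A, from 10.5 and 9.71 to 36.3 and 23.0 CPM (log2 1.61, adjusted p = 4.3e-06). Of 14 interferon and MHC class I genes HLA-E, which presents peptides to natural killer cells, rose (46.9 and 50.9 to 85.1 and 87.2 CPM, log2 0.82, adjusted p = 1.6e-05) and OAS3 fell (log2 -1.08). Of 23 targets of YAP and serum response factor 3 rose, ACTG1 among them (log2 0.55), and F3 fell. Of 22 genes of glycolysis GAPDH rose by log2 0.21 and PGAM1 fell by 0.27, of 15 of fatty acid synthesis ELOVL6 (-0.82) and ACSL4 (-0.73) fell, and of 13 of the BCL2 family MCL1 alone was called. HIST3H2A and HLA-E had separate ranges and were called without each sum in turn. OAS3, PGAM1, ELOVL6 and ACSL4 missed the threshold without the PI3K inhibitor sum of library 1 (adjusted p = 0.61, 0.53, 0.15 and 0.67), and OAS3, PGAM1 and ACSL4 without the EGF sum of library 1 (0.33, 0.39 and 0.27).

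By size, the largest rises among genes at 20 CPM or more were GRB7 and FAM110C. GRB7, an adaptor that docks on receptor tyrosine kinases, was at 2.63 and 0.777 CPM with EGF alone and 17.6 and 25.9 with the inhibitor (log2 3.32, SE 0.46, adjusted p = 6.4e-07), on 13 and 2 UMIs with EGF alone and 31 and 27 with the inhibitor. FAM110C was at 7.28 and 8.93 CPM with EGF alone, 71.5 and 66.1 with the PI3K inhibitor and 0.553 and 3.62 with the MEK inhibitor (log2 3.12, SE 0.22, adjusted p = 1.1e-14). Both had separate ranges and were low at 15 h, GRB7 at 1.29 and 4.94 CPM and FAM110C at 12.9 and 14.8. Rises of SLFN5 (log2 2.70), SLC7A2 (2.38), a transporter of cationic amino acids, RALGPS2 (2.01), the forkhead factor FOXC2 (1.99), UBALD2 (1.98) and PNRC1 (1.97) followed. With TXNIP, EGR1, HBP1, BNIP3L, YPEL3 and CCNG2 these make 14 of the 15 largest rises, and the last, the histone gene HIST1H2AC, differed between libraries: it was at 5.66 and 6.60 CPM with EGF alone and 56.7 and 11.50 with the inhibitor (log2 2.69, adjusted p = 2e-08, but 0.4 without the PI3K inhibitor sum of library 1). Histone genes have near-identical copies, so its count is uncertain. All 15 were called in cells matched in S.

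The largest falls after SPRR2D were ZBED2 (log2 -2.18), CENPA, FGFBP1, JMJD6 (-1.82), LMNB1, F3, GINS1, AC006329.1 (-1.69), MFSD2A (-1.62), SRGAP3 (-1.61), PI3, SH2D4A (-1.56), RBM12 (-1.50) and the co-chaperone BAG2 (-1.47). FGFBP1, a secreted carrier of fibroblast growth factors, was at 224 and 301 CPM with EGF alone and 52.8 and 94.9 with the inhibitor (log2 -1.88, SE 0.18, adjusted p = 9.4e-11), and F3, tissue factor, at 111 and 162 CPM with EGF alone and 25.0 and 63.2 with the inhibitor (log2 -1.73, adjusted p = 3.1e-11). Neither overlaps between the cultures, and MEK-inhibited cells had 161 and 264 CPM of FGFBP1 and 36.0 and 54.3 of F3. All 15 falls were called in cells matched in S. AC006329.1, SRGAP3, SH2D4A and RBM12 missed the threshold without the PI3K inhibitor sum of library 1 (adjusted p = 0.088, 0.0528, 0.21 and 0.3), and CENPA was at log2 0.18 in cells with S between the median and the 75th percentile. GRB7 lies on chromosome 17 (chr17:39737927-39747291), FAM110C on chromosome 2 (chr2:38814-46870), CCND1 on chromosome 11 (chr11:69641087-69654474) and FGFBP1 on chromosome 4 (chr4:15935569-15938740), all protein-coding in GENCODE release 29 on GRCh38. Counts are per gene and do not resolve exons.

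Whether the inhibitor acted differently in S-like cells than in the other 388 cells of the same cultures was tested as an interaction. Of 10280 genes 0 were called (0.0%), with 0 higher and 0 lower, by edgeR's quasi-likelihood test with a term for each library and culture, and unadjusted p was under 0.05 for 422 (4.11%). Without a filter on low counts 3 genes were called higher and 1 lower. The smallest adjusted p, 0.173, belonged to CDKN1A, which was chosen after its values were seen. In S-like cells CDKN1A differed by log2 0.58 and 0.91 in libraries 1 and 2, and in the remaining cells by -0.84 and -0.38 (interaction 1.38, SE 0.27). FOXO targets had medians above 0 in both kinds of cell, 0.57 and 0.36 in S-like cells of libraries 1 and 2 and 0.50 and 0.64 in the remaining cells. Ribosome biogenesis genes had medians below 0 in both, -0.36 and -0.38 in S-like cells and -0.48 and -0.45 in the remaining cells. S phase genes had medians of -0.31 and -0.24 in S-like cells and of 0.03 and 0.02 in the remaining cells, and G2/M genes of -0.78 and -0.26 in S-like cells and of 0.09 and -0.06 in the remaining cells. These list differences were not tested. The remaining cells were chosen for low S, and S phase and G2/M genes were low in them in both cultures. Their medians near 0 there are thus partly set by the cut and do not show where the inhibitor acted. Of the 1609 changed genes that could be read in both, 1271 had the same sign in both libraries of the remaining cells. The matching share over all genes is not given here, so this count is a description. The remaining cells numbered 88 and 39 with EGF alone, so their values are the less precise.

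**Figure D5:**
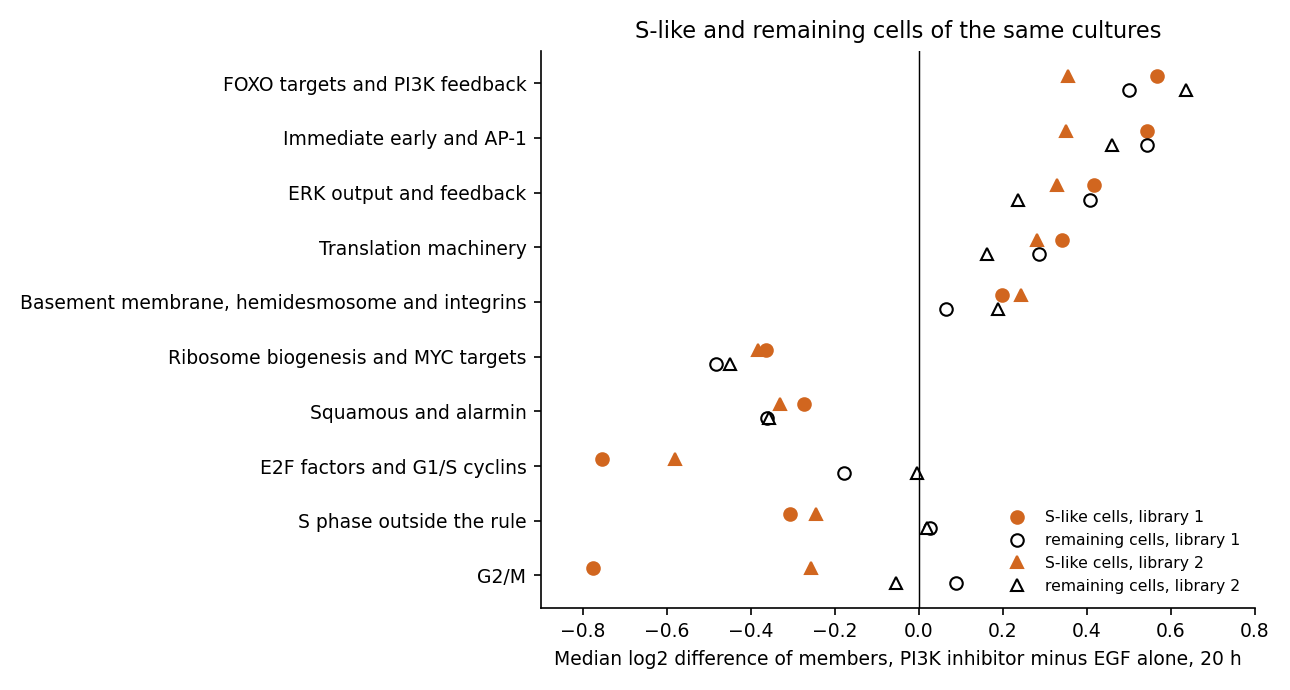
Median log2 difference (horizontal axis, PI3K inhibitor minus EGF alone at 20 h) of 10 gene lists in S-like cells (filled) and in the remaining cells of the same cultures (open), with a circle for library 1 and a triangle for library 2. FOXO targets and ribosome biogenesis genes have medians of the same sign in both kinds of cell, while the S phase and G2/M medians of the remaining cells lie within 0.1 of 0. The remaining cells were chosen for low S, so these S phase and G2/M medians are partly set by the cut.

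Against S-like cells of the MEK inhibitor (147 and 184 cells), 1739 of 9978 genes differed (17.4%), 871 higher with the PI3K inhibitor (8.73%) and 868 lower (8.7%). ERK output genes, which lie downstream of MEK, were higher in 19 of 22 cases, and EGFR ligands and receptors in 5 of 7. The 8 largest differences upward were GRB7, FAM110C, CITED4, FOXC2, EGR1, ITGA2, ANGPTL4 and KIAA0040. All 8 were at 12.1 CPM or less in both MEK inhibitor sums, so the folds rest on few UMIs and are not given. CITED4, a transcriptional coactivator, was at 39.7 and 37.4 CPM with the PI3K inhibitor, 1.11 and 2.01 under MEK inhibition and 24.9 and 22.1 with EGF alone. The largest differences downward were those of GPR1, CA2, GMPR, SERPINB13, VAV3, CPA4 and PCDH9. The PI3K inhibitor sums held 1 to 9 UMIs of each but PCDH9, which had 30 and 19 and differed by log2 -2.29 (adjusted p = 1.5e-12). PCDH9, a protocadherin, was at 17.0 and 18.2 CPM with the PI3K inhibitor, 91.3 and 78.0 under MEK inhibition and 15.8 and 14.4 with EGF alone, so it stood apart in the MEK-inhibited cells. S phase genes were lower with the PI3K than with the MEK inhibitor in 25 of 60 cases and G2/M genes in 42 of 65, with 1 higher in each list. S differed between these cultures too, with a mean in S-like cells of 0.140% and 0.164% under MEK inhibition against 0.0851% and 0.113% with the PI3K inhibitor, and so did the median G2/M share, 0.328% and 0.463% against 0.197% and 0.345%. Cells were not matched in S for this comparison, and the part of S in these counts was not tested. Ribosome biogenesis medians differed by -0.01 between the inhibitors and FOXO targets by 0.39, with 12 of 37 higher and 1 lower. The comparisons against EGF and against MEK inhibition share the PI3K inhibitor sums. Without the block 618 genes differed, 353 higher and 265 lower.

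The cells carried the markers of their line. All 13 identity genes of MCF10A were measured at 8.15 CPM or more in each of the 4 sums, among them KRT14, at 8791 and 8527 CPM with EGF alone and 8164 and 6947 with the inhibitor, VIM (586 and 434 CPM with EGF alone and 777 and 532 with the inhibitor) and TP63 (9.50 and 8.15 CPM with EGF alone and 12.5 and 12.5 with the inhibitor). Of 25 markers of blood, vessel, stroma, fat and other cells, 11 were among the genes used here and 2, PDGFRB and ESR1, were at 0 in all 4 sums. Their summed level was 18.2 and 17.7 CPM with EGF alone and 26.5 and 21.5 with the inhibitor, of which DCN gave the most. Their part in the results was not tested.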

How the data were processed

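Single MCF10A cells of 8 conditions were pooled with sample tags into 2 droplet libraries, 1 per biological replicate. Per the submitters' processing notes the reads were processed with Cell Ranger 3.0.2 and Seurat on GRCh38. The authors deposited UMI counts per gene and cell, not normalized, with the condition of each cell taken from its tag. The tag caller, the cell filter, the annotation release and the strand setting are not stated in the sources used here. Barcodes the authors had marked as doublets of differently tagged cells, 4848 of 8641 in library 1 and 2478 of 6161 in library 2, are left out, while doublets within a tag cannot be seen. Further barcodes of these totals are not among the 2616 and 2221 cells with counts, and the reason was not examined. All steps used the 16387 genes present in both libraries' tables.

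Counts of the S-like cells were summed per library and condition. Conditions with at least 20 S-like cells in each library entered the fit (14 sums, 7 conditions, the culture at 0 h left out), so 6 residual degrees of freedom estimate the spread. edgeR 4.0.16 (R 4.3.3, limma 3.58.1) was run with filterByExpr, TMM scaling, the library as a block and the quasi-likelihood test, with Benjamini-Hochberg adjustment over all genes tested. The 10 genes of S were removed from the sums before scaling and testing. The block follows from the design, since all conditions of a replicate share a library. Same-library sums deviated together in all 21 pairs of conditions, with a median correlation of 0.441 (0.291 to 0.639) over 4828 genes. CPM values use TMM-scaled totals. The interaction was fitted on 28 sums, with the S-like and remaining cells of each condition and library as separate sums.

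The members and the gene lists (29 lists, 760 genes, 728 matched to the tables, 6 of them by an older symbol, 646 tested) were chosen with earlier results of these data known. The genes named are the 15 largest rises and falls called at an adjusted p under 0.05 that had 1 sign in the 2 libraries and averaged at least 20 CPM in either culture, the called members of the lists, and the 8 largest each way against the MEK inhibitor. Genes named without a call were added as members of the lists, and a few genes that meet the rule are not reported here. Alternatives were RLE scaling, library totals, no filter, DESeq2 1.42.0, no block, only the 20 h conditions, each sum left out, other cuts of S, thinned cells, cells matched in S, a low G2/M share, cells without the top 10% of UMIs, and the 10 genes kept. For comparisons of conditions, the p-values measure the spread left after the library block is taken out, estimated over 14 sums of 7 conditions. For the interaction they measure how the difference between S-like and remaining cells varied between the 2 libraries of a condition. The fit was tested on simulated counts. Promoter and gene positions come from RefSeq and GENCODE release 29, both on GRCh38.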

Additional observations from a re-analysis of the deposited data

How the results depend on the processing

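The number of genes changed against EGF alone, 1611, was 402 without the replicate block (208 higher, 194 lower), 800 by DESeq2 (451 and 349), 812 with the cut at the 75th percentile of S (443 and 369), 1032 in cells matched in S (547 and 485), 303 in cells with a low G2/M share (159 and 144) and 557 with S between the median and the 75th percentile (320 and 237), a setting chosen after seeing the data. Library totals gave 508 higher and 1452 lower. Leaving out 1 sum at a time gave 472 to 1240 genes, 278 to 677 higher and 194 to 583 lower, the fewest without the PI3K inhibitor sum of library 1. RLE scaling, no filter, only the 20 h conditions, thinned cells, no top 10% of UMIs and keeping the 10 genes of S each gave a count within 1.5 times of 1611. Against the MEK inhibitor DESeq2 called 888 genes (517 and 371), and the fit without the replicate block 618 (353 and 265). The interaction with the remaining cells gave 4 genes without a filter (3 higher, 1 lower) and 0 under its other settings. The S-like share of PI3K-inhibited cells was 39.9% and 45.0% after thinning. The cause of these changes was not tested.

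Of 170 named genes read against EGF alone, 70 lost their call without the replicate block, 66 without the PI3K inhibitor sum of library 1, 44 above the 75th percentile of S and 39 in cells matched in S, as did 68 of 151 with a low G2/M share and 57 of 168 between the median and the 75th percentile, and 0 of the 16 largest differences from the MEK inhibitor lost theirs without the block. These counts cover only genes that kept their sign, and some genes whose sign turned lost their call too. In cells matched in S these were ATAD2, MKI67 and RAD51AP1. Signs turned, on the log2 scale, mainly with the cut on S. In cells matched in S ATAD2 was at 0.28, HMGB2 at 0.41, MKI67 at 0.066 and RAD51AP1 at 0.038. Between the median and the 75th percentile CCNA2 was at 0.69, CENPA at 0.18, FOXO3 at -0.069, HELLS at 0.14, HMGB2 at 0.74, MKI67 at 0.38, RAD51AP1 at 0.51 and UNG at 0.31. Above the 75th percentile HMGB2 was at 0.13 and MYC at 0.11, and with a low G2/M share FOXO3 was at -0.26, HMGB2 at 0.30, POLA2 at 0.21 and USP1 at 0.0047. Genes with no call turned elsewhere: PRIM1 was at -0.086 with library totals and -0.085 without the top 10% of UMIs. With 1 sum left out PRIM1 ranged from -0.086 to 0.37, MYC from -0.13 to 0.15 and AREG from -0.057 to 0.39. Low G2/M sums held 32 to 91 cells, which limits what they can show.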
